A study of Homo sapiens with 12 samples.

Results

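The 14-3-3 proteins are encoded in these data by 7 genes, YWHAB, YWHAE, YWHAG, YWHAH, YWHAQ, YWHAZ and SFN, out of 19774 genes with a probe set that names them alone. They were chosen by family name, with the changes measured on these arrays already known. The values that bear on that choice are each gene's level on each array and its change from the control of its line. They also take in the difference between cells with both constructs and cells with a single one. Those values are therefore given as a description with their errors. Where a count says how many passed the threshold of the fit over all genes, nothing is read from it. The 7 genes have 20 probe sets, 1 for YWHAG, 4 for YWHAZ and 3 for each other gene, and 17 of them were above background on at least 1 array.

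The series holds 12 Affymetrix U133 Plus arrays of RNA from 3 established lines that the labels call colorectal cancer with methylated miR-200 loci, HUTU-80, MDST8 and NCI-H716. Both constructs together, miR-200ba429 and miR-200c141, were measured on 1 array each of MDST8 and NCI-H716. The construct miR-200c141 alone was measured on 4 arrays, 1 each of MDST8 and NCI-H716 and 2 of HUTU-80, titled 1:3 and 1:5, whose meaning the labels do not give. The construct miR-200ba429 alone and the control were measured on 1 array of each line, and nothing beyond the word control describes that group. Cells with a construct received lentivirus and were sorted for GFP 48 hours later, and RNA was taken 7 days after transduction. Whether control cells were transduced or sorted is not stated. Changes from control may therefore take in those steps, and this was not tested. The cells with both constructs were a fraction of the miR-200ba429 cells that received a second virus, with miR-200c141, 24 hours after the sort. The presence of both clusters and the second transduction therefore cannot be told apart. With 1 array per line and group, apart from HUTU-80 with miR-200c141, the SDs of groups below are between lines. SEs, intervals and p-values come from the scatter left after group and line are fitted. For differences between lines, the arrays of a line thus differ in construct and are not replicates of 1 condition.

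14-3-3 proteins are small acidic adapters that form dimers and bind other proteins at phosphorylated serine or threonine. Binding holds clients such as RAF kinases, CDC25 phosphatases, BAD, FOXO factors and YAP1 in one conformation or compartment. The YWHA genes are expressed in nearly all cells, whereas SFN (14-3-3 sigma, stratifin) is known from epithelia and as a p53 target that holds cells at the G2 checkpoint. miR-200 microRNAs repress the transcription factors ZEB1 and ZEB2, and their loss accompanies a shift from epithelial to mesenchymal genes.

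The 5 mature microRNAs of the constructs are shown because they divide into a pair of seed classes, each present in both constructs. The sequences are RefSeq's, build GRCh38.p14, written 5′ to 3′ with bases 2 to 8, the seed, in capitals. The first 3, of which miR-200c belongs to miR-200c141 and the others to miR-200ba429, share the seed AAUACUG. The last 2 share AACACUG, and miR-141 belongs to miR-200c141 and miR-200a to miR-200ba429.
miR-200c-3p: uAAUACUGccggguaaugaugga
miR-200b-3p: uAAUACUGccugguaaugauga
miR-429: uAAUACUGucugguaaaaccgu
miR-141-3p: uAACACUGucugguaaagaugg
miR-200a-3p: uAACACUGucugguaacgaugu
Target sites in the 14-3-3 transcripts were not analysed here.

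All values are log2 intensities as deposited, and a gene's level is that of its probe set with the highest mean. The level of the brightest of 23 nonspecific control probe sets, 5.43, served as background. Array medians lay between 3.60 and 3.66. The lowest correlation between 2 arrays of a line was 0.978 and the highest between lines 0.885. ZEB1, a known miR-200 target, had 7.15 with both clusters, 7.94 with miR-200c141 and 9.26 with miR-200ba429 in MDST8, against 9.39 in its control. In NCI-H716 it had 8.34, 8.43 and 8.85, against 10.15 in the control. In HUTU-80 ZEB1 had 7.925 and 7.99 with miR-200c141 and 8.75 with miR-200ba429, against 9.87 in the control. ZEB2 was above background only in MDST8, with 6.35 for miR-200c141 and 7.60 for miR-200ba429, against 7.97 in the control, and it was at background with both clusters. CDH1 (E-cadherin) in NCI-H716 had 9.03 with both clusters, 8.52 with miR-200c141 and 6.64 with miR-200ba429, against 4.01 in the control, which is at background. In HUTU-80 CDH1 had 6.01 and 5.84 with miR-200c141, and was at background with miR-200ba429 and in the control. It was at background on all 4 MDST8 arrays. Of 11 markers of intestinal epithelium, 1 was above background in the HUTU-80 control, 1 in the MDST8 control and 9 in the NCI-H716 control, so in HUTU-80 and MDST8 the labelled tissue is largely unmarked. Leukocyte and endothelial markers were at background on all arrays. The difference between the 3′ and 5′ probe sets of ACTB was 2.02 on the MDST8 array with both clusters, against 1.497 to 1.539 on the other MDST8 arrays. On the NCI-H716 array with both clusters it was 2.63, against 2.33 to 2.41 on the other NCI-H716 arrays. For GAPDH it was 0.383 in MDST8 and 0.351 in NCI-H716 with both clusters, against 0.277 to 0.324 and 0.271 to 0.325 on their other arrays. On the HUTU-80 arrays, none with both clusters, ACTB ran from 2.102 to 2.388 and GAPDH from 0.269 to 0.38. This difference, a measure of RNA quality, was thus largest with both clusters in each line that had them. Its part in the values below was not tested.

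YWHAG (14-3-3 gamma), known for binding many kinases and their targets, had the lowest change of the 7 genes with both clusters. Its single probe set, 222985_PM_at, read 10.97 in MDST8 and 10.96 in NCI-H716 cells with both clusters. With miR-200c141 alone it read 11.84 in MDST8, 11.63 in NCI-H716, and 11.49 and 11.48 on the HUTU-80 arrays. With miR-200ba429 alone it read 11.88 in MDST8, 11.80 in NCI-H716 and 11.58 in HUTU-80. The controls read 11.79 in MDST8, 11.93 in NCI-H716 and 11.62 in HUTU-80. Both arrays with both clusters lay below all 10 other arrays, whereas the arrays with a single construct overlapped the controls. Of all genes, 2.81% lay below the other arrays in the same way, and YWHAG was the only one of the 7. These are bulk samples, in which fewer cells with a transcript and less of it per cell cannot be told apart.

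**Figure D1:**
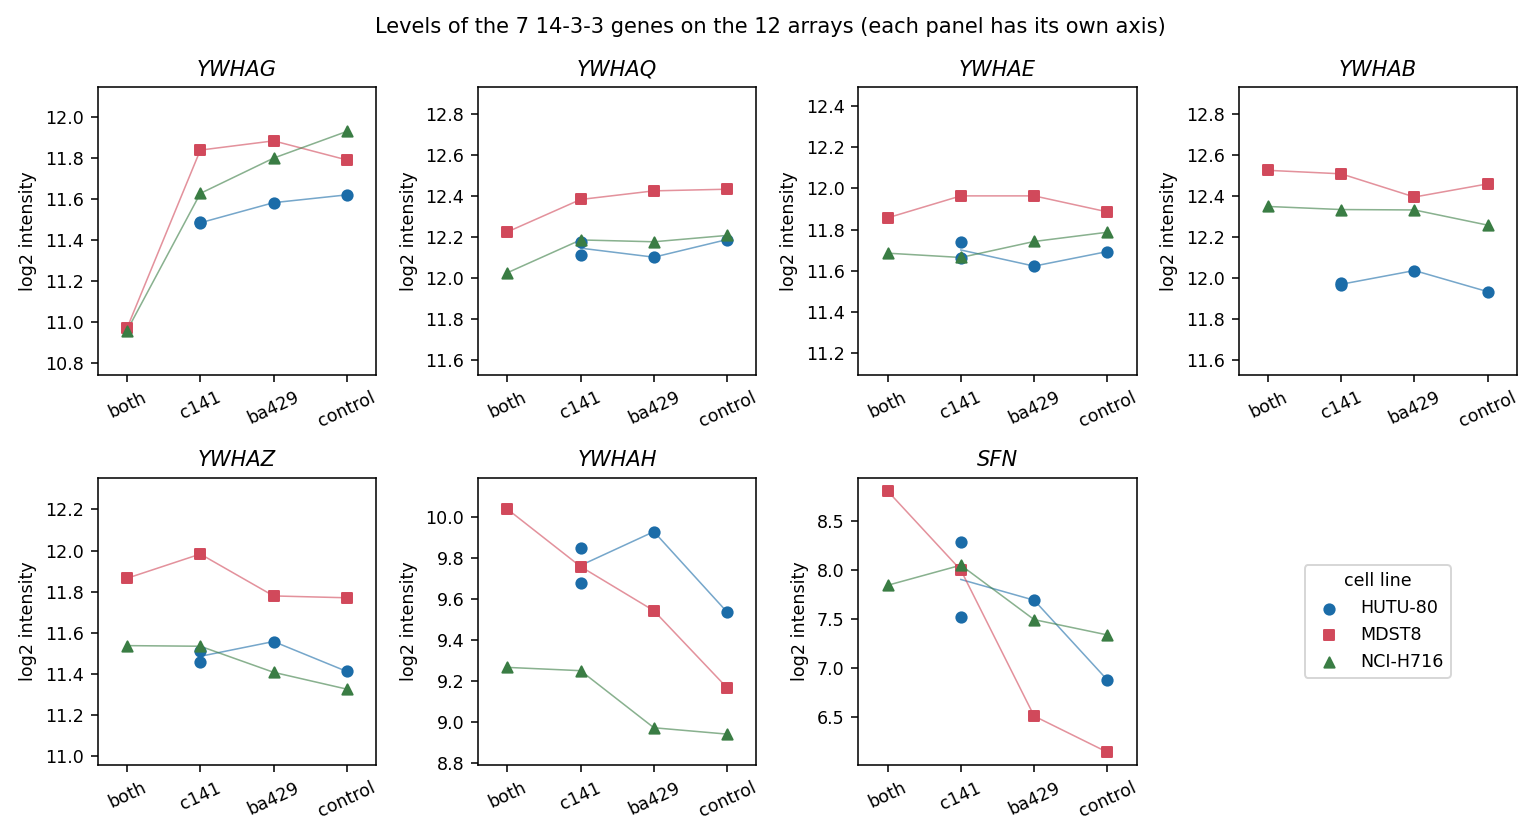
Level of each 14-3-3 gene on the 12 arrays as log2 intensity, by group from both clusters at the left to control at the right, with points for arrays, lines joining the means of a cell line, and a separate vertical axis for each panel. YWHAG is near 10.97 on both arrays with both clusters and at or above 11.48 on the others, while SFN and YWHAH are lowest in the control of every line.

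The mean of YWHAG was 10.97 ± 0.01 with both clusters (SD, n = 2), 11.65 ± 0.18 with miR-200c141 (SD, n = 3 lines, HUTU-80 arrays averaged), 11.76 ± 0.15 with miR-200ba429 (SD, n = 3) and 11.78 ± 0.15 in controls (SD, n = 3). In a linear model with the line as a term, both clusters differed from control by -0.90 ± 0.08 (SE), or 0.54 times the control level, with a 95% interval of -1.07 to -0.72. Against cells with a single cluster the difference was -0.82 ± 0.07 (SE; 95% interval -0.98 to -0.66). The change with miR-200c141 alone was -0.13 ± 0.07 (SE) and that with miR-200ba429 alone -0.03 ± 0.07 (SE), and both 95% intervals include 0. Both clusters went below the sum of the single changes by -0.74 ± 0.10 (SE; 95% interval -0.97 to -0.51), a contrast added after the data were seen in which 0 of 19774 genes passed the threshold (0%) and 1263 had an unadjusted p under 0.05. Without the line as a term, or with only the 2 groups compared in the fit, the difference between both clusters and control was -0.815 and -0.895 and no longer passed the threshold.

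The change of YWHAG was the lowest of the YWHA genes on both arrays with both clusters, further from its paralogues there than on any array with a single one. In MDST8 with both clusters YWHAG changed by -0.82, while YWHAB, YWHAE, YWHAH, YWHAQ and YWHAZ changed by -0.21 to 0.87. In NCI-H716 with both clusters YWHAG changed by -0.97, and the other 5 by -0.18 to 0.325. The change of YWHAG minus the mean change of those 5 genes was -0.98 in MDST8 and -1.04 in NCI-H716. On the 7 arrays with a single cluster this difference ran between -0.39, in NCI-H716 with miR-200c141, and 0.015, in MDST8 with miR-200ba429. With the mean of all probe sets of each gene it was -0.91 and -1.10 with both clusters, and between -0.42 and 0.045 with a single one. These differences share each line's control array and are given without a test.

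**Figure D2:**
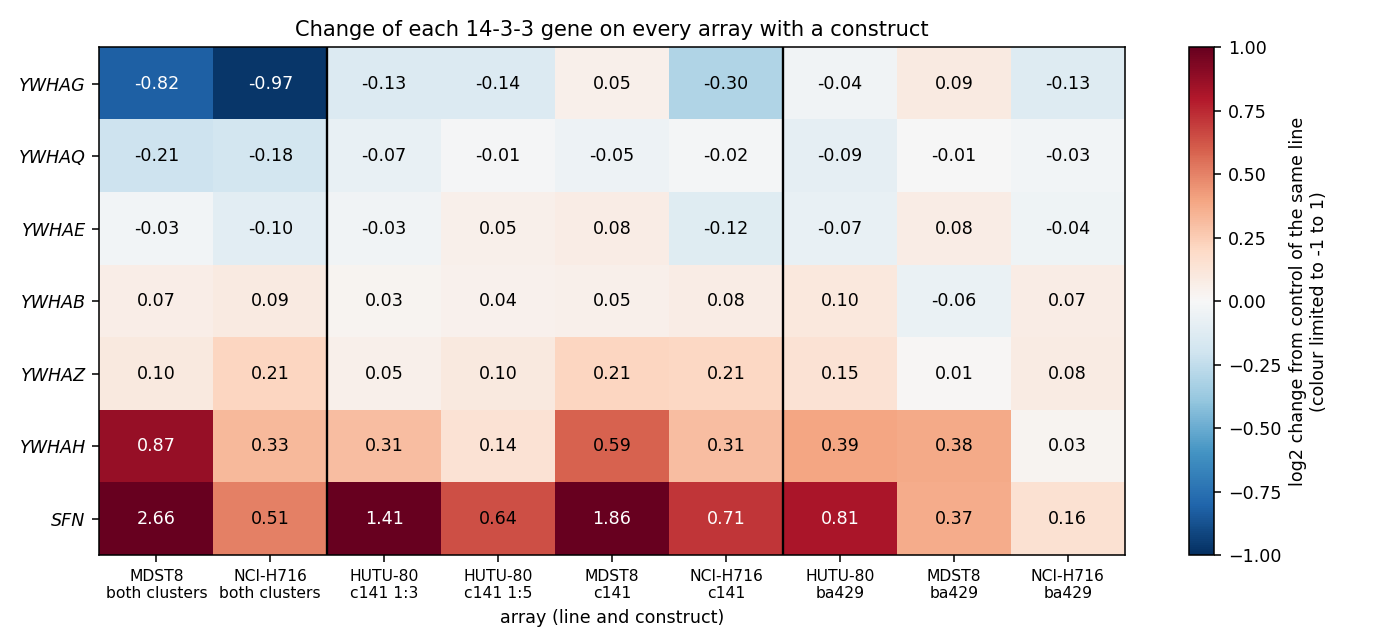
Log2 change from the control of the same line for the 7 genes (rows) on the 9 arrays with a construct (columns, both clusters at the left), with the colour limited to -1 to 1 and the value printed in each cell. YWHAG is at -0.82 and -0.97 with both clusters and between -0.30 and 0.09 elsewhere, and SFN is above 0 on all 9 arrays.

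YWHAQ (14-3-3 theta), an adapter found in T cells and many other tissues, was below the control of its line on every array with a construct, though by little. It read 12.22 in MDST8 and 12.03 in NCI-H716 with both clusters, against 12.43 and 12.21 in the controls of those lines. On the arrays with a single cluster its change ran from -0.09 to -0.01, so that it was negative on 9 of 9 arrays. The fitted difference between both clusters and control was -0.20 ± 0.06 (SE; 95% interval -0.32 to -0.08), which did not pass the threshold. The other 2 probe sets of YWHAQ were also below control with both clusters. Probe set 200693_PM_at changed by -0.29 in MDST8 and -0.43 in NCI-H716 with both clusters, against -0.16 to 0.08 on the arrays with a single cluster. Probe set 212426_PM_s_at changed by -0.18 in MDST8 and -0.49 in NCI-H716, against -0.23 to 0.19 with a single cluster, so that its MDST8 value lay inside that range. With the mean of the 3 probe sets the fitted difference was -0.29 ± 0.06 (SE) and passed.

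**Figure D3:**
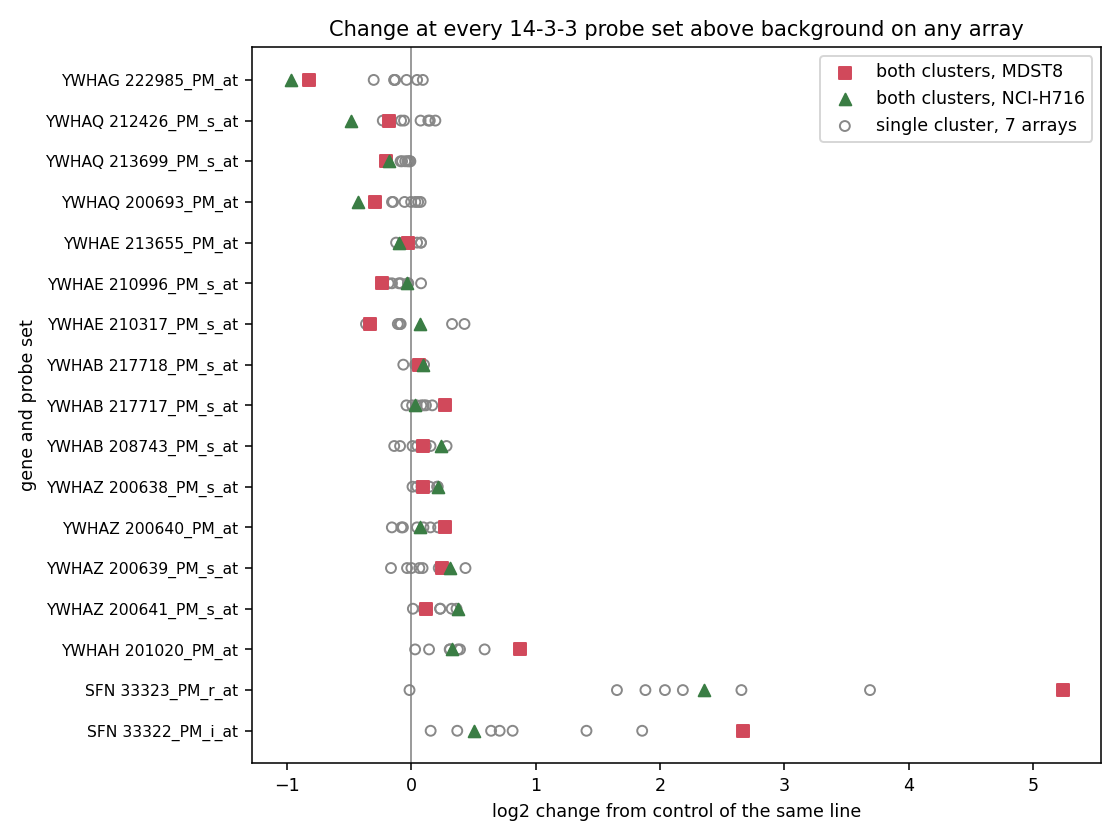
Log2 change from the control of the same line at the 17 probe sets of the 14-3-3 genes above background on any array, with filled symbols for both clusters in MDST8 and NCI-H716 and open circles for the 7 arrays with a single cluster. YWHAG has 1 probe set, the 3 of YWHAQ lie below 0 with both clusters, and the values of SFN probe set 33323_PM_r_at in MDST8 and NCI-H716 are against controls at background.

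YWHAE (14-3-3 epsilon), YWHAB (14-3-3 beta) and YWHAZ (14-3-3 zeta), which act in growth factor and survival signalling, differed little from control with both clusters. YWHAE moved by -0.03 and -0.10 on the arrays with both clusters and by -0.12 to 0.08 over all 9, and its direction varied between arrays. YWHAB moved by 0.07 and 0.09 with both clusters and was positive on 8 of 9 arrays. YWHAZ moved by 0.10 and 0.21 with both clusters and was positive on 9 of 9, with values between 0.01 and 0.21. These are values of the probe set used, and other probe sets varied more in direction with a single cluster. For YWHAZ, 200639_PM_s_at ran from -0.163 to 0.436, 200640_PM_at from -0.156 to 0.216 and 200641_PM_s_at from 0.013 to 0.364. For YWHAB, 208743_PM_s_at ran from -0.137 to 0.284 and 217717_PM_s_at from -0.039 to 0.169. With both clusters every probe set of YWHAB and YWHAZ was above control. Fitted differences between both clusters and control were -0.07 ± 0.07 for YWHAE, 0.09 ± 0.06 for YWHAB and 0.15 ± 0.07 for YWHAZ (SE). Their 95% intervals run from -0.22 to 0.08, from -0.05 to 0.22 and from -0.01 to 0.31. The genes were chosen with these changes known, so the intervals do not test a difference from YWHAG.

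YWHAH (14-3-3 eta) had higher values in every cell population with a construct. It read 10.04 in MDST8 and 9.27 in NCI-H716 with both clusters, against 9.17 and 8.94 in the controls of those lines. With miR-200c141 alone it read 9.76 in MDST8, 9.25 in NCI-H716, and 9.85 and 9.68 in HUTU-80, against 9.17, 8.94 and 9.54 in the controls. With miR-200ba429 alone it read 9.54, 8.97 and 9.93 in the same lines. The change was positive on 9 of 9 arrays, from 0.03 to 0.87, while levels of different lines overlapped. The fitted difference was 0.59 ± 0.14 with both clusters, 0.38 ± 0.12 with miR-200c141 and 0.27 ± 0.12 with miR-200ba429 (SE). The first of these passed the threshold, and no longer did so without the MDST8 array with both clusters (0.425), the MDST8 control (0.474), the NCI-H716 array with miR-200ba429 (0.583) or the HUTU-80 control (0.598). Only probe set 201020_PM_at was above background, and the other 2 were at background on all arrays.

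SFN had the largest and the most uneven changes of the 7 genes. Probe set 33322_PM_i_at read 8.81 in MDST8 and 7.85 in NCI-H716 with both clusters, against 6.14 and 7.34 in the controls of those lines. With miR-200c141 alone it read 8.002 in MDST8, 8.05 in NCI-H716, and 8.29 and 7.52 in HUTU-80, whose control read 6.88. With miR-200ba429 alone it read 6.51 in MDST8, 7.50 in NCI-H716 and 7.70 in HUTU-80. SFN was above its own line's control on 9 of 9 arrays, by 0.16 to 2.66. In NCI-H716 the array with both clusters lay below that with miR-200c141 alone. The fitted difference was 1.62 ± 0.39 with both clusters (SE; 95% interval 0.75 to 2.49), 1.198 ± 0.342 with miR-200c141 (SE; 95% interval 0.45 to 1.95) and 0.45 ± 0.34 with miR-200ba429 (SE), the last with a 95% interval that includes 0. The first of these passed the threshold, but no longer did so when any of 8 of the 11 samples was left out. The lowest such value was 0.766, without the MDST8 array with both clusters, and the value without the MDST8 control was 1.292. Without that array with both clusters the difference between both clusters and single clusters was -0.057, against 0.796 ± 0.356 (SE) with it and 1.648 without the NCI-H716 array with both clusters.

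The second SFN probe set, 33323_PM_r_at, showed the same order in MDST8. It read 9.30 with both clusters and 7.75 with miR-200c141, and was at background with miR-200ba429 and in the control. The level with both clusters was at least 14.6-fold higher than control and that with miR-200c141 at least 5.0-fold higher, taking the background level for the control. In NCI-H716 it was at least 3.49-fold higher with both clusters, at least 4.3-fold higher with miR-200c141 and at least 2.15-fold higher with miR-200ba429. In HUTU-80, where the control was above background, it was 4.54-fold and 3.69-fold higher with miR-200c141 and 4.11-fold higher with miR-200ba429. The third SFN probe set was at background on all arrays. Epithelial markers above background numbered 2 of 11 in MDST8 with both clusters, 1 with each single cluster and 1 in its control, with summed log2 levels of 48.2, 47.6, 46.9 and 45.3. In NCI-H716 they numbered 10 with each construct and 9 in the control, with sums of 101.4, 100.3, 94.5 and 82.8. The part of these markers' shift in the SFN values was not tested.

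The E-box CACCTG is a motif that ZEB factors are known to bind. It was absent from the windows of YWHAB, YWHAE, YWHAG, YWHAH and YWHAQ. The promoter of YWHAZ was not searched, because windows of its chromosome were left out. The promoter of SFN is shown because it holds the motif. The window runs from 250 bases before to 50 after the start in RefSeq's build GRCh38.p14, at chr1:26862899-26863198 on the plus strand, and capitals mark the match, CAGGTG, which reads CACCTG on the opposite strand, 213 bases before the start.
SFN promoter: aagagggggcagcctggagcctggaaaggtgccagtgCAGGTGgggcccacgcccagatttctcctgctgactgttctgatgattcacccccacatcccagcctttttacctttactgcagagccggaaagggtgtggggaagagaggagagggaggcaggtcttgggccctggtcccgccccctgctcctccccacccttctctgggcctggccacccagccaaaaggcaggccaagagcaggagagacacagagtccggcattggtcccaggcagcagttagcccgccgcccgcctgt
A match on either strand was present in 20.6% of 35116 windows of the same length. The match is a description of letters, and binding was not measured.

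**Figure D4:**
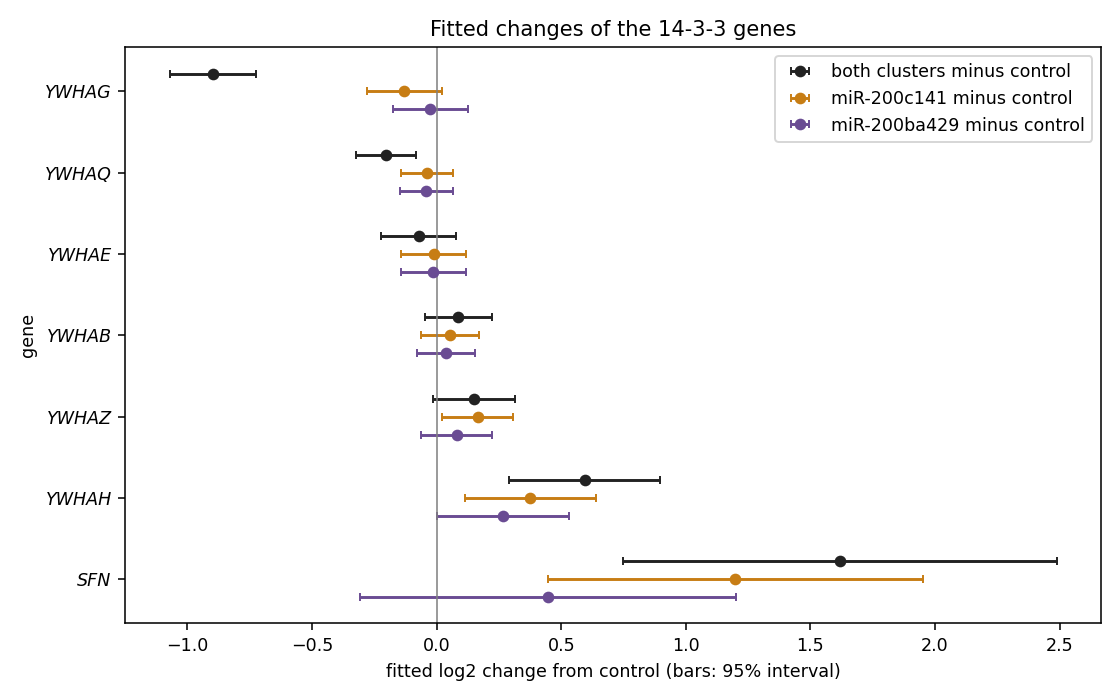
Fitted log2 change from control of the 7 genes with both clusters, miR-200c141 and miR-200ba429, with bars for the 95% interval from the model over all genes. The interval of YWHAG with both clusters, -1.07 to -0.72, lies apart from its intervals with single clusters and from those of all other members. The genes were chosen with these changes known, so this is a description and no test.

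Over the family, 2 of 7 genes (SFN and YWHAH) passed the threshold upward and 1 (YWHAG) downward with both clusters against control, where 2.33% of all genes passed upward and 3.81% downward. All 7 were above background on all arrays by the probe set used. Of the 11310 genes above background in 2 or more samples, 594 passed upward and 919 downward, a larger share than of all genes. With both clusters against single clusters, YWHAG passed downward and none passed upward, where 1.39% of all genes passed downward and 0.273% upward. In a fit of all 40914 probe sets, 649 passed there in either direction. They included YWHAQ probe sets 200693_PM_at (-0.33 ± 0.06, SE) and 212426_PM_s_at (-0.35 ± 0.07, SE), but not the one used for the gene. As a gene, YWHAQ did not pass there in any of 25 alternatives. With miR-200c141 alone 0% of all genes passed and 1302 had an unadjusted p under 0.05. With miR-200ba429 alone 0% passed and 1214 had such a p. No member passed in the direct comparison of miR-200c141 with miR-200ba429 (adjusted p = 1.0000 each), where 0% of all genes passed and 705 had an unadjusted p under 0.05. There the difference was 0.75 ± 0.34 for SFN (SE; 95% interval -0.002 to 1.504) and -0.10 ± 0.07 for YWHAG (SE; 95% interval -0.26 to 0.05). The change with any construct averaged -0.23 in MDST8, -0.47 in NCI-H716 and -0.09 in HUTU-80 for YWHAG, and 1.63, 0.46 and 0.92 for SFN. These averages take in the array with both clusters in MDST8 and NCI-H716, and HUTU-80 has none. With a single cluster alone the change of YWHAG was 0.05 and 0.09 in MDST8, -0.30 and -0.13 in NCI-H716, and -0.13, -0.14 and -0.04 in HUTU-80. A test of the difference between lines, over these unlike sets of constructs, gave an adjusted p of 0.9998 for each of the 7 genes, and 0.00506% of all genes passed it.

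Levels between lines were fitted with the construct held. The level on each array bears on the choice of genes, so these differences and their p-values are a description too. In HUTU-80 against MDST8, 20.5% of all genes passed the threshold downward, and 3656 of the 11310 above background in 2 or more samples. Of the 7 genes, 5 did. The differences were -0.48 ± 0.05 for YWHAB (adjusted p = 1.24e-05), -0.35 ± 0.06 for YWHAZ (adjusted p = 7.17e-04), -0.27 ± 0.07 for YWHAG (adjusted p = 0.0057), -0.26 ± 0.06 for YWHAE (adjusted p = 0.0027) and -0.265 ± 0.046 for YWHAQ (adjusted p = 5.76e-04). Over all genes the median difference was 0.041, with 4523 genes passing upward and 4046 downward. The median level over genes differed by -0.35 between HUTU-80 and MDST8, and centring each array on its median shifts every gene's difference by that amount. By that construction 10328 genes passed upward and 2741 downward, YWHAG, YWHAE and YWHAQ turned to 0.07, 0.08 and 0.08, and only YWHAB of the 5 still passed downward, at -0.14. In NCI-H716 against HUTU-80, YWHAB was higher by 0.32 ± 0.05 (adjusted p = 2.40e-04) and YWHAG by 0.23 ± 0.07 (adjusted p = 0.0142), where 20.5% of all genes passed upward. The call of YWHAG held in 13 of 19 alternatives, and was lost with centred arrays (0.039), with no variance trend, and without any 1 of the 3 HUTU-80 samples or the NCI-H716 control (0.175). For YWHAH the difference was -0.73 ± 0.12 (adjusted p = 2.60e-04), where 25.1% passed downward. With the mean of its 3 probe sets, 2 of them at background on all arrays, the fitted difference was -0.000 (adjusted p = 0.9981). With centred arrays 3233 genes passed upward and 7013 downward, against 4052 and 4962 as deposited. Of the 11310 genes above background in 2 or more samples, 3599 passed upward and 4393 downward as deposited. In NCI-H716 against MDST8, 26.4% of all genes passed downward, and 4518 of the 11310 above background in 2 or more samples. Of the 7 genes, 5 did. The largest of these were YWHAH at -0.52 ± 0.10 (adjusted p = 0.0012) and YWHAZ at -0.40 ± 0.06 (adjusted p = 7.89e-05), the 2 that also passed with centred arrays, where 6773 genes passed upward and 4305 downward, against 5007 and 5217 as deposited. From high to low, YWHAB ran MDST8, NCI-H716, HUTU-80, with -0.153 between NCI-H716 and MDST8 (adjusted p = 0.0142). That call was lost with no variance trend, with centred arrays, and without the MDST8 control (-0.137) or the MDST8 array with miR-200c141 (-0.139). YWHAH ran HUTU-80, MDST8, NCI-H716, where the first 2 did not differ beyond their spread on the deposited scale (0.21, adjusted p = 0.1785). With the mean of its probe sets YWHAH turned to 0.208 in NCI-H716 against MDST8. SFN did not pass between HUTU-80 and MDST8 (0.39, adjusted p = 0.3960).

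The counts of genes for 14-3-3 clients that passed stand beside 2.33% of all genes passing upward and 3.81% downward with both clusters against control. The lists come from textbook knowledge and concern mRNA, whereas binding depends on phosphorylated protein, which was not measured. Of 18 measured clients in growth signalling and survival, 0 rose and 1 fell with both clusters against control, with a median change of -0.14 against 0.00 for all genes. That gene was YAP1, a transcriptional coactivator held in the cytoplasm by 14-3-3, which had 10.37 in MDST8 and 7.78 in NCI-H716 with both clusters, against 11.28 and 8.46 in the controls (-0.84 ± 0.16, adjusted p = 0.0135). Of 13 clients in the cell cycle and chromatin, 0 rose and 1 fell (median -0.19). It was CDC25B, a phosphatase that activates cyclin-dependent kinases, at -0.89 ± 0.20 (adjusted p = 0.0278). Of 19 clients in cytoskeleton, polarity and traffic, 1 rose and 0 fell (median 0.14). It was the keratin KRT18, with 11.79 in MDST8 and 12.30 in NCI-H716 with both clusters, against 9.89 and 11.42 in the controls (1.48 ± 0.23, adjusted p = 0.0066). KRT18 is also one of the 11 epithelial markers. Of 10 clients in metabolism, of which 3 were above background on any array, 1 rose and 0 fell (median 0.18). It was TPH1, a tryptophan hydroxylase, at 0.87 ± 0.14 (adjusted p = 0.0073), and it was at background on all arrays.

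Among 17 measured kinases that make 14-3-3 binding sites, 0 rose and 3 fell with both clusters against control, where 2.33% of all genes rose and 3.81% fell. Their median change was -0.37, with 7 changes above 0 and 10 below. All 17 were above background on at least 1 array. Of the 11310 genes above background in 2 or more samples, 594 rose and 919 fell. PRKACB, a catalytic subunit of protein kinase A, had 8.34 in MDST8 and 8.29 in NCI-H716 with both clusters, against 9.42 and 9.52 in the controls (-1.15 ± 0.15, adjusted p = 0.0029). PRKD3, a protein kinase D, changed by -0.82 ± 0.11 (adjusted p = 0.0037). Against single clusters YAP1 (-0.76 ± 0.14, adjusted p = 0.0285), PRKACB (-1.005 ± 0.139, adjusted p = 0.0063) and PRKD3 (-0.59 ± 0.10, adjusted p = 0.0211) also passed. With the mean of all probe sets of a gene, YAP1, CDC25B and PRKD3 no longer passed against control, with PRKD3 at -0.339, while PRKACB passed at -0.745. Against single clusters none of the 3 then passed, with YAP1 at -0.596, PRKACB at -0.587 and PRKD3 at -0.183. Nor did any of the 3 pass against single clusters without the MDST8 array with both clusters (YAP1 at -0.755, PRKACB at -0.898 and PRKD3 at -0.545). That call of YAP1 and that of PRKD3 were also lost without the HUTU-80 or the MDST8 sample with miR-200c141 or the NCI-H716 array with miR-200ba429. The call of YAP1 was further lost without the HUTU-80 control, and that of PRKD3 without the MDST8 array with miR-200ba429. Without the MDST8 array with both clusters YAP1 (-0.838), CDC25B (-0.598) and KRT18 (1.183) did not pass against control. CDC25B also did not pass without any 1 of the 3 controls or the NCI-H716 array with miR-200ba429.

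The genes whose change was most like that of YWHAG over the 8 samples with a construct were CBX1, a heterochromatin protein (Pearson r = 0.991), ACOT7, an acyl-CoA thioesterase (r = 0.990), CLDND1 (r = 0.988), SNRPB2, a U2 snRNP protein (r = 0.986), and CDC27, a subunit of the anaphase-promoting complex (r = 0.985). They came from 4382 genes compared, and the samples of a line share its control array. CBX1 changed by -1.19 in MDST8 and -1.34 in NCI-H716 with both clusters, and by -0.70 to -0.08 with a single one. CDC27 changed by -0.755 and -1.024 with both clusters, and by -0.238 to 0.221 on the arrays with a single one. In each of these genes, as in YWHAG, the samples with both clusters had the lowest changes, and they weigh most in r. For SFN the closest of 7960 genes were LINC02482, RIMS2 and ZBED5-AS1 (r = 0.989 each), HMGN4 (r = 0.984) and SMAD1 (r = 0.983). Of these, SMAD1, a signal transducer of BMP receptors, changed by 0.93 in MDST8 with both clusters and by 0.096 in NCI-H716, where SFN changed by 2.66 and 0.51. ZBED5-AS1 and HMGN4 changed by 0.911 and 0.539 in MDST8 with both clusters, but by -0.367 and -0.013 in NCI-H716, against the direction of SFN. RIMS2 changed by 2.06 in MDST8 and was at background in NCI-H716 with both clusters and in its control. LINC02482 was at background in NCI-H716 with both clusters and in the MDST8 and NCI-H716 controls.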

How the data were processed

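Each deposited value is the log2 intensity of 1 probe set, and per the submitters' processing notes the authors used RMA. RMA corrects background, quantile normalizes and summarises probes, which equalises the distribution of probe values between arrays. The sources used here do not give its settings. Of 54715 probe sets, 40914 name a single gene and were kept, and each gene was represented by its probe set with the highest mean.

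A linear model was fitted with limma 3.58.1 under R 4.3.3 to construct group and cell line on 11 samples (the 2 HUTU-80 arrays with miR-200c141 averaged), with empirical Bayes moderation with a variance trend and two-sided p-values adjusted by Benjamini-Hochberg across the 19774 genes (threshold 0.05). Samples of a line are paired through the line term. Residual degrees of freedom were 5. The fit was tested on simulated data. Nothing states that arrays of a line came from separate cultures, so p-values measure the spread between these samples. The number of arrays limits precision, and an error in a line's single control array enters every change of that line.

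The members, gene lists and tests were chosen with earlier results of these data known. Named genes are all members, ZEB1, ZEB2 and CDH1 as a check, up to 4 genes of each list past the threshold by size of change (except 1 kinase, not reported here), and the 5 genes most like YWHAG and the 5 most like SFN. Alternatives were the mean of all probe sets, other uses of the HUTU-80 arrays, a filter on dim genes, median centring, no trend, no line term, fewer groups or lines, and each sample or line left out.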

Additional observations from a re-analysis of the deposited data

How the results depend on the processing

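Over 26 alternative settings and 60 results, 1181 of the recomputed values were taken as kept and 22 reversed. A further 164 lost the threshold or, for counts of members called, fell, and 7 gained it or rose. For a difference, kept means the same direction and side of the threshold. For a count it takes in a small change, such as 3 to 2 between NCI-H716 and HUTU-80. For YWHAG with both clusters the change stayed between -0.973 and -0.815 against control. It no longer passed without a replicate block for the line (-0.815), with only the groups compared (-0.895) and with only those groups in MDST8 and NCI-H716 (-0.895). Against single clusters it was -0.737 without the block. The number of members called with both clusters against control was 1 with no variance trend or with only MDST8 and NCI-H716, 0 with only the groups compared, in all or 2 lines, and 0 without the block, which also gave 0 against single clusters. Leaving out single samples or lines gave 1 to 3 against control and 1 to 2 against single clusters. Between HUTU-80 and MDST8 the number was 3 with the mean of all probe sets or no trend and 2 with arrays centred on their median. Between NCI-H716 and MDST8 it was 2 centred and 3 with no trend. Over all genes, the 1214 called with both clusters against control became 662 with the mean of all probe sets, 679 with no trend, 362 with only MDST8 and NCI-H716, 19 with only the groups compared, 7 with those groups in these 2 lines, 0 without the block, and 376 to 1676 with 1 sample left out. The 329 called against single clusters became 118, 98, 85, 154, 80 and 0, and 103 to 1083. With only the 11310 genes above background in 2 or more samples, 1513 were called against control and 494 against single clusters. The cause of these shifts was not tested.

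Reversals were mostly of values near 0. Leaving out samples or lines moved YWHAG with miR-200ba429 between -0.089 and 0.035, YWHAE with miR-200c141 between -0.058 and 0.042 and with miR-200ba429 between -0.058 and 0.021, YWHAZ against single clusters between -0.019 and 0.074, and SFN against single clusters between -0.057 and 1.648. Averaging a gene's probe sets put YWHAE and YWHAQ with miR-200ba429 at 0.007, YWHAE in HUTU-80 against MDST8 at 0.092, and YWHAH in NCI-H716 against MDST8, where the mean takes in probe sets at background, at 0.208. YWHAE was at 0.001 with miR-200c141 using only the HUTU-80 array titled 1:5. With centred arrays YWHAE was at 0.005 with miR-200ba429, and YWHAG, YWHAE and YWHAQ in HUTU-80 against MDST8 at 0.071, 0.079 and 0.076. With both clusters against control, the calls held in 14 of 25 alternatives for YWHAH, 10 of 26 for SFN, 18 of 25 for YAP1, 12 for CDC25B, 21 for KRT18, 22 for PRKACB and 21 for PRKD3.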
